A study of Mus musculus with 6 samples.

Results

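The Wnt pathway genes of HC11 cells, a mouse mammary epithelial cell line, were compared between cultures with and without BMP7 protein. The genes were chosen by name, as all Wnt ligand, Frizzled, Sfrp, Dkk and R-spondin genes together with *Lrp5*, *Lrp6*, *Axin2*, *Lef1*, *Tcf7*, *Lgr4*, *Lgr5*, *Wif1*, *Znrf3*, *Rnf43* and *Nkd1*, a rule that reads no expression value. They number 52 of the 55809 genes in the count table, and the rule was set with earlier results of these data known. The data are poly(A) RNA-seq of 3 libraries from HC11 cells in medium without BMP7 (Ctrl) and 3 from HC11 cells in medium with BMP7. HC11 is a single established line, and the labels give neither dose nor duration for these cultures. The study's methods describe stimulation of starved HC11 cells for more than 1 duration without naming the one that was sequenced. Nothing states that the libraries came from separate cultures, so the p-values measure the spread between these libraries, which may be technical.

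Wnt proteins are secreted, lipid-modified ligands. They bind Frizzled receptors, alone or with the co-receptors Lrp5 and Lrp6, and in the canonical branch this stabilizes beta-catenin, which then acts with Tcf and Lef factors on target genes. Sfrp and Wif1 proteins bind Wnts outside the cell, Dkk proteins act mostly on Lrp5 and Lrp6, and R-spondins act through Lgr receptors to remove the ligases Znrf3 and Rnf43, which clear Frizzled from the surface. Other Wnts act without beta-catenin, for example in planar polarity. In the mammary gland, Wnt signaling is known for its part in basal stem cell maintenance and in ductal branching.

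With BMP7, 10 of the 27 genes tested passed the threshold, set at 0.05 for the adjusted p of edgeR's quasi-likelihood test and at a fold of 1.2. *Wnt11*, *Fzd1*, *Fzd9*, *Wif1*, *Lgr4* and *Tcf7* were higher, and *Wnt7b*, *Wnt10a*, *Fzd5* and *Sfrp1* were lower. The 10 genes are 37.0% of those tested, where the same threshold was passed by 11.4% of all 15733 genes tested (5.99% higher and 5.38% lower). *Wif1*, *Rspo3* and *Lgr5* entered the test only through the BMP7 libraries, and without them 9 of 24 genes passed. The BMP7 and Ctrl libraries did not overlap for 19 of the 27 genes (70.4%) and for 29.8% of all genes tested. The median log2 fold change was 0.07 over the 27 genes and -0.01 over all genes tested. Levels are given as CPM, a gene's count scaled to a common library size after TMM normalization, and each gene's log2 fold change is that of BMP7 against Ctrl. In RNA from whole cultures, fewer cells that express a gene and less RNA per cell cannot be told apart.

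Total counts were 19858701 to 20327200 in Ctrl and 14607938 to 23748970 with BMP7, and the 52 genes together took 0.158% to 0.167% of each library. The BMP7 libraries carry the numbers 1, 3 and 4 in the count table and are named by them. The BMP response genes *Id1* and *Id3* rose by log2 fold changes of 4.28 and 6.31. The study uses HC11 as a luminal line, yet the basal keratin genes *Krt5* and *Krt14* stood at means of 2643 and 3489 CPM in Ctrl, against 63.2 for *Krt8* and 49.5 for *Krt18*. Of the other luminal genes, *Epcam* and *Cdh1* were the highest, at 640 and 983 CPM in Ctrl. *Gata3*, *Cldn3*, *Elf5*, *Krt7*, *Prlr* and *Elf3* were at 63.3, 39.4, 24.6, 17.2, 14.0 and 10.6 CPM. *Esr1*, *Cldn4*, *Foxa1*, *Kit* and *Krt19* were at 3.97, 2.42, 0.259, 0.179 and 0.0979 CPM in Ctrl. The basal genes *Acta2*, *Myh11* and *Cnn1* were at 0.602, 0.277 and 0.0813 CPM there, while basal *Krt17* and *Trp63* were at 214 and 238. The summed CPM of 10 adipocyte genes was 25.5 to 35.3 in Ctrl, 39.2 in BMP7 replicate 1 and 104 and 91.9 in BMP7 replicates 3 and 4. That of 11 macrophage genes was 46.8 to 50.4 in Ctrl, 48.8 in BMP7 replicate 1 and 27.0 and 25.3 in replicates 3 and 4. Among these, *Lyz2* was at 26.3, 26.6 and 25.5 CPM in Ctrl and 22.5, 6.76 and 6.94 in BMP7 replicates 1, 3 and 4. *Lyz2* and *Ptprc* were lower, and the rest did not pass or were not tested. *Cd68* was at 10.9 to 11.6 CPM in Ctrl and higher in every BMP7 library (12.4 to 15.6). The summed CPM of 9 basal genes was 6551 to 6687 in Ctrl and 7511 to 8942 with BMP7, and that of 16 luminal genes 1893 to 1926 and 1615 to 1635. Among these basal genes *Krt14*, *Krt17*, *Trp63* and *Oxtr* were higher, and *Krt5* (log2 fold change -0.03) and the rest did not pass or were not tested. Among the luminal genes *Krt18*, *Epcam*, *Cdh1* and *Cldn3* were lower and *Gata3* was higher (63.3 to 132 CPM). The rest, *Krt8* among them, did not pass or were not tested. The sums of 9 fibroblast genes overlapped (116 to 127 in Ctrl and 106 to 125 with BMP7). *Col1a1* was lower (71.1 to 53.2 CPM), *Col1a2*, *Col3a1*, *Dcn*, *Dpt* and *Pi16* were higher, and *Pdgfra* and *Pdgfrb* did not pass. *Lum* was not tested. The groups overlapped for *Dpt*, at 0.196 to 0.530 CPM in Ctrl and 0.279, 2.40 and 1.98 in BMP7 replicates 1, 3 and 4. *Dcn* was at 1.74 CPM in BMP7 replicate 1, next to 1.73 in Ctrl replicate 1, and at 4.44 and 4.90 in BMP7 replicates 3 and 4. The sums of 5 endothelial genes were 13.3 to 15.9 in Ctrl, below every BMP7 library (up to 26.3). Nearly all of it was *Pecam1*, with at most 8 counts of *Cdh5* and 3 of *Kdr* in any library. The luminal gene *Pgr* had no count. The part of these marker genes in the results was not tested. The log2 fold changes of BMP7 replicate 1 alone are given for the genes past the threshold among the 52, since its adipocyte and macrophage sums were nearest to Ctrl, while its basal sum was the farthest from it. That fit has 1 BMP7 library, so its spread comes from the Ctrl libraries only, and its values are a description.

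Promoter sequences are shown for members of both directions, to let the reader see the DNA around the start sites of genes that moved. Of the 27 tested genes, 14 had a promoter in the RefSeq table, which is on build GRCm38.p6. The 250 bases before the start site were searched on both strands for GGCGCC, a GC-rich element that Smad1 and Smad5 can bind, and for CTTTGAT, a Tcf/Lef element, whose letters do not overlap. Capitals mark these motifs in the 5′ to 3′ sequences of *Wnt11* (chr7:98834862-98835111, plus strand), *Fzd9* (chr5:135251048-135251297, minus strand), *Fzd1* (chr5:4758217-4758466, minus strand) and *Fzd5* (chr1:64737751-64738000, minus strand).
*Wnt11*: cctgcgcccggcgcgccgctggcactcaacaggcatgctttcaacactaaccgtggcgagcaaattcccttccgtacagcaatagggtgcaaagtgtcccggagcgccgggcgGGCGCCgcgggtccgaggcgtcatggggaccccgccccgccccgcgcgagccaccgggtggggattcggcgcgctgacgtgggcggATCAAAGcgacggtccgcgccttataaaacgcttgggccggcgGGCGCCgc
*Fzd9*: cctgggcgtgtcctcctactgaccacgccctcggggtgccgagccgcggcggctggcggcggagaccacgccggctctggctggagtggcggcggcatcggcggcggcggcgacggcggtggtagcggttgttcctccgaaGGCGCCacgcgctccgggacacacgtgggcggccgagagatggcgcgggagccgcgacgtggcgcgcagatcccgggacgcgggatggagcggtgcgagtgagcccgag
*Fzd1*: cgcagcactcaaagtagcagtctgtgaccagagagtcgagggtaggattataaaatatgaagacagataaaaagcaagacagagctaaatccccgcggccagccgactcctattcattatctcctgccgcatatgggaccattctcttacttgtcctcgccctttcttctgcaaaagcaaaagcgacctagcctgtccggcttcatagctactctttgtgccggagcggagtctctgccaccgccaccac
*Fzd5*: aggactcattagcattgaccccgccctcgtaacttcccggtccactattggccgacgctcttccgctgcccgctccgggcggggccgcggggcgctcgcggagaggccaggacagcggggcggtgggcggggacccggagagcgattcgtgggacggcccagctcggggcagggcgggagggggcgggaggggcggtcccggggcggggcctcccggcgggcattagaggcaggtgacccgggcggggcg
The *Wnt11* window held GGCGCC beginning 137 and 8 bases before the start and, as its reverse complement, the Tcf/Lef element beginning 51 bases before it. The window at a second *Wnt11* start held neither. *Fzd9* held GGCGCC at 109 bases before its start, and the windows of *Fzd1*, which rose, and *Fzd5*, which fell, held no match. Among all 32851 promoter windows of this length, 9.59% held the Smad element and 3.21% the Tcf/Lef element. The Smad element stood in a window of 7 of the 14 members found in the table, of which 3 rose (*Wnt11*, *Fzd9* and *Tcf7*) and *Fzd4*, *Wnt2b*, *Wnt4* and *Wnt9a* did not pass the threshold. This counts genes with the element in any of their windows, so it is not on the scale of the 9.59% of single windows. The GC content of the windows shown was 70.8% for *Wnt11*, 76.4% for *Fzd9*, 51.2% for *Fzd1* and 76.4% for *Fzd5*, against a median of 52.4% over all windows. The other windows with the Smad element were also rich in GC, at 64.4% and 76% for *Tcf7* and 72.8% for *Fzd4*. Those of *Wnt2b*, *Wnt4* and *Wnt9a* were at 80.8%, 85.2% and 84.4%. A match is a run of letters and not a measured site.

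Of the 19 Wnt ligand genes, 7 were tested, of which 1 rose, 2 fell and 4 did not pass the threshold. *Wnt11*, which is known for acting largely without beta-catenin, lies on the plus strand of chromosome 7 from 98484319 to 98504402 (mm39, as the count table gives it). Its level was 0.674, 0.639 and 0.831 CPM in Ctrl replicates 1, 2 and 3 and 3.69, 2.40 and 3.31 CPM in BMP7 replicates 1, 3 and 4. All BMP7 libraries thus lay above all Ctrl libraries, the lowest of them BMP7 replicate 3. *Wnt11* rose from a mean of 0.715 ± 0.102 to 3.13 ± 0.664 CPM (SD, n = 3 libraries per group), and the log2 fold change was 2.11 (0.30 standard error, SE, and edgeR adjusted p = 0.000102). Behind these levels stand 13 to 17 counts per Ctrl library and 53 to 60 per BMP7 library, so the 95% confidence interval of the log2 fold change is 1.48 to 2.73. With BMP7 replicate 1 alone the log2 fold change was 2.36. An antisense gene, Gm8398, shares 8.8% of the *Wnt11* exon length and had no count in any library.

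*Wnt7b*, a ligand of the canonical branch on chromosome 15 (85419638 to 85466674, minus strand), moved the other way. It stood at 6.12, 5.997 and 4.84 CPM in Ctrl and at 3.28, 1.91 and 3.36 CPM with BMP7, so that the groups did not overlap. It fell from 5.65 ± 0.704 to 2.85 ± 0.813 CPM, with a log2 fold change of -1.02 (SE 0.22, edgeR adjusted p = 0.00417). In BMP7 replicate 1 alone the log2 fold change was -0.78. *Wnt10a*, another canonical ligand, was measured at 11.4, 13.7 and 11.2 CPM in Ctrl and at 10.5, 7.91 and 8.43 CPM with BMP7. The highest BMP7 library lay just under the lowest Ctrl library, and the log2 fold change was -0.45 (SE 0.13, edgeR adjusted p = 0.0348). This call was lost without Ctrl replicate 1 (edgeR adjusted p = 0.0515), Ctrl replicate 2 (0.176), BMP7 replicate 3 (0.161) or BMP7 replicate 4 (0.0925), and in BMP7 replicate 1 alone the log2 fold change was -0.21.

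Among the ligands that did not pass, *Wnt4*, a ligand known for its part in progesterone-driven side branching, was at 7.22, 7.32 and 6.41 CPM in Ctrl and 11.4, 8.89 and 8.32 CPM with BMP7. Its groups did not overlap, its log2 fold change was 0.44 with a 95% confidence interval of 0.13 to 0.74, and its adjusted p from edgeR was 0.0569. Of the 6 fits that left out 1 library, *Wnt4* passed only in the one without BMP7 replicate 4 (log2 fold change 0.52, edgeR adjusted p = 0.0382), and without BMP7 replicate 1 the values were 0.30 and 0.185. *Wnt9a* was at 3.37, 3.34 and 3.23 CPM in Ctrl and at 3.00, 1.78 and 1.65 CPM with BMP7, a log2 fold change of -0.66 (edgeR adjusted p = 0.0902). BMP7 replicate 1 was the nearest to Ctrl, and without it *Wnt9a* passed with a log2 fold change of -0.94 (edgeR adjusted p = 0.0159). *Wnt6* gave -0.31 (95% confidence interval -1.04 to 0.42). *Wnt2b* split the libraries across the groups, with 2, 3 and 22 counts in Ctrl and 1, 18 and 14 counts with BMP7, and its interval of -1.16 to 1.96 leaves its direction unset.

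The other 12 ligand genes were below the expression filter. *Wnt2*, *Wnt3*, *Wnt3a* and *Wnt8b* had no count in any library, which allows a level of up to 0.133 to 0.209 CPM (3 counts in the largest and smallest library, for counting error only). *Wnt1*, *Wnt5a*, *Wnt5b*, *Wnt7a*, *Wnt8a*, *Wnt9b* and *Wnt16* had between 0 and 3 counts in each library, and no difference was detectable at this depth. *Wnt10b* had 8, 8 and 18 counts in Ctrl and 5, 6 and 3 with BMP7.

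Per kilobase of exon, the scale on which genes can be compared, *Wnt10a* was the highest ligand gene in both groups, at 4.91 ± 0.564 CPM per kb in Ctrl and 3.62 ± 0.545 with BMP7. *Wnt4* followed at 1.67 ± 0.120 and 2.27 ± 0.386 CPM per kb. *Wnt7b* (1.15 ± 0.144) and *Wnt9a* (0.995 ± 0.0228) came next in Ctrl, with a difference of about 1 SD between them, and *Wnt11* stood far lower at 0.173 ± 0.0248 CPM per kb. With BMP7 the levels of *Wnt11* (0.757 ± 0.160), *Wnt9a* (0.644 ± 0.223) and *Wnt7b* (0.582 ± 0.166 CPM per kb) lay within their spread of each other. As a share of the summed level of the 19 ligand genes, *Wnt11* made up 1.78% ± 0.339 in Ctrl and 8.83% ± 0.997 with BMP7. *Wnt10a* made up 50.2% ± 2.95 and 42.4% ± 0.788, and *Wnt7b* 11.8% ± 1.23 and 6.77% ± 1.56. The share of *Wnt4* was 17.1% ± 0.842 in Ctrl and 26.6% ± 2.22 with BMP7.

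**Figure D1:**
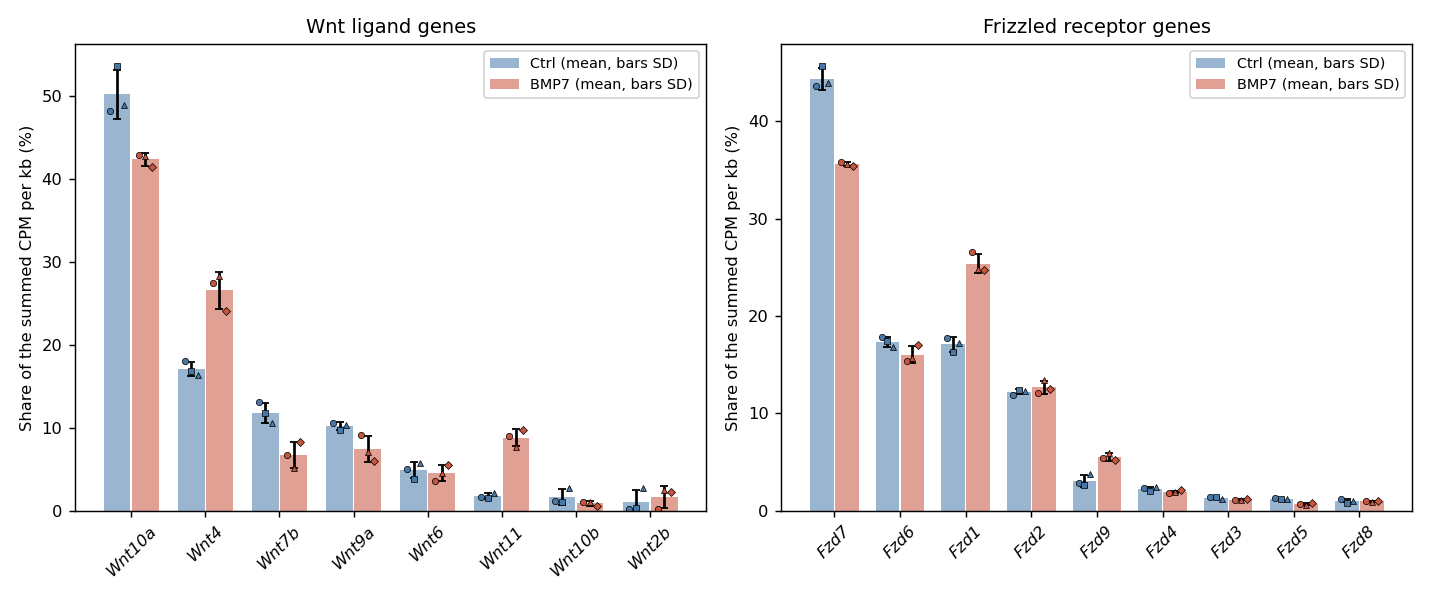
Share (%) of the summed CPM per kb of exon that each Wnt ligand gene (left, of 19) and Frizzled gene (right, of 10) took in Ctrl (blue) and BMP7 (red) libraries, for genes with a mean share above 1% in either group. Bars are means of 3 libraries, error bars are SD and points are single libraries, and *Wnt11* goes from 1.78% to 8.83% and *Fzd1* from 17.1% to 25.4%.

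Of the 10 Frizzled genes and 2 co-receptor genes, 11 were tested, and *Fzd10* had no count. 2 rose, 1 fell and 8 did not pass the threshold. *Fzd1*, on chromosome 5 from 4803839 to 4808035 (minus strand), was at 125, 112 and 127 CPM in Ctrl and at 211, 202 and 199 CPM with BMP7. The groups were far apart against their spread, and *Fzd1* rose from 122 ± 8.12 to 204 ± 6.37 CPM, with a log2 fold change of 0.75 (SE 0.06, edgeR adjusted p = 4e-07). *Fzd9*, also on chromosome 5 (135277792 to 135280084, minus strand), was at 10.8, 9.98 and 15.4 CPM in Ctrl and at 23.8, 26.4 and 22.8 CPM with BMP7. Ctrl replicate 3 was the highest of its group and still lay under every BMP7 library. Its log2 fold change was 1.01 (SE 0.13, edgeR adjusted p = 5.48e-05). *Fzd5*, on chromosome 1 (64769717 to 64776910, minus strand), was at 14.7, 13.8 and 14.9 CPM in Ctrl and at 9.48, 8.53 and 11.3 CPM with BMP7. It fell without overlap, by 0.57 on the log2 scale (SE 0.12, edgeR adjusted p = 0.0042), and an antisense gene that shares 17.8% of its exon length had at most 3 counts in any library. In BMP7 replicate 1 alone the log2 fold changes were 0.80 for *Fzd1*, 0.98 for *Fzd9* and -0.61 for *Fzd5*.

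The other receptors changed little or not measurably. *Fzd7*, the most abundant Frizzled gene and one linked to basal mammary stem cells, was at 332, 340 and 349 CPM in Ctrl and 309, 312 and 308 CPM with BMP7. Its groups did not overlap, but its log2 fold change of -0.14 (95% confidence interval -0.26 to -0.02, edgeR adjusted p = 0.129) did not pass. *Fzd2* was at 73.3, 75.0 and 79.4 CPM in Ctrl and 84.5, 95.2 and 88.0 CPM with BMP7. Its adjusted p was 0.0252 from edgeR, but its log2 fold change of 0.24 fell short of the required fold, which it reached without Ctrl replicate 3 or without BMP7 replicate 1 (0.27 in both). *Lrp5* and *Lrp6*, the canonical co-receptors, gave log2 fold changes of 0.17 (interval 0.03 to 0.30) and 0.12 (-0.01 to 0.25). The intervals of *Fzd3* (-0.20 to 0.14), *Fzd4* (-0.26 to 0.15) and *Fzd6* (-0.06 to 0.20) lay within a fold of 1.2 in either direction, and that of *Fzd8* (-0.23 to 0.35) did not.

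Per kilobase, *Fzd7* led in both groups, at 75.1 ± 1.93 CPM per kb in Ctrl and 68.3 ± 0.461 with BMP7. *Fzd6* (29.4 ± 0.632) and *Fzd1* (29.0 ± 1.94 CPM per kb) were level with each other in Ctrl. With BMP7, *Fzd1* stood at 48.7 ± 1.52 CPM per kb, above *Fzd6* at 30.8 ± 1.82. Of the summed Frizzled level, *Fzd7* took 44.4% ± 1.12 in Ctrl and 35.6% ± 0.229 with BMP7, and *Fzd1* took 17.1% ± 0.739 and 25.4% ± 1.00. *Fzd9* went from 3.09% ± 0.629 to 5.52% ± 0.390.

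**Figure D2:**
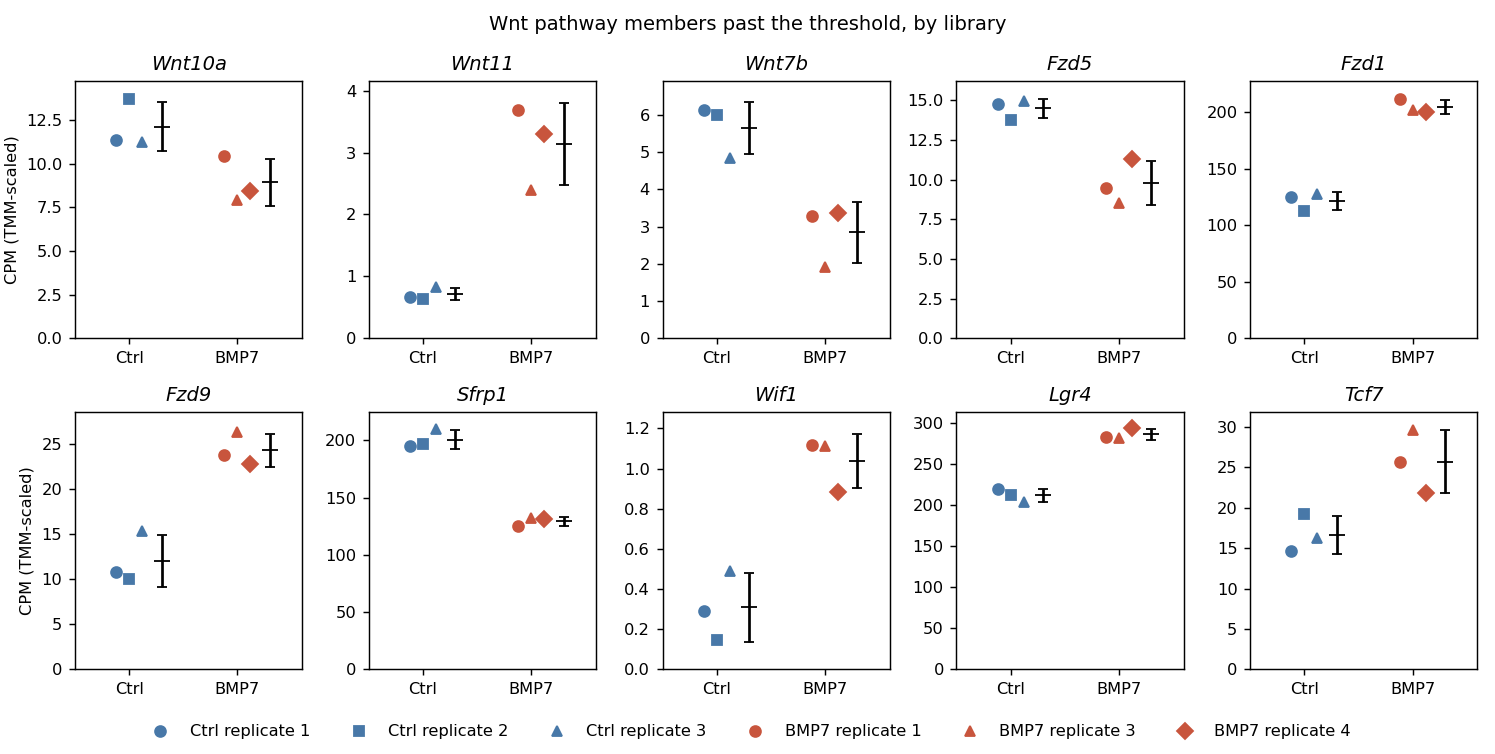
Level (CPM after TMM normalization, linear axis from 0) of the 10 Wnt pathway genes past the threshold, in each Ctrl (blue) and BMP7 (red) library, with the mean and SD of 3 libraries in black. In each panel all BMP7 libraries lie on the same side of all Ctrl libraries, and for *Wnt10a* the nearest libraries are at 10.5 and 11.2 CPM.

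The secreted antagonists, 9 genes, were represented by few expressed members. *Sfrp1*, a Wnt-binding protein on chromosome 8 (23901518 to 23939648, plus strand), was the most abundant, at 195, 196 and 210 CPM in Ctrl and 125, 132 and 131 CPM with BMP7. The spread within each group was small against the gap between them. *Sfrp1* fell from 200 ± 8.24 to 129 ± 3.89 CPM, with a log2 fold change of -0.63 (SE 0.06, edgeR adjusted p = 1.24e-06), and by -0.68 in BMP7 replicate 1 alone. *Wif1*, another Wnt-binding inhibitor, lies on chromosome 10 from 120869865 to 120936555 (plus strand) and was at 0.289, 0.147 and 0.489 CPM in Ctrl and 1.12, 1.11 and 0.881 CPM with BMP7. These levels rest on 3 to 10 counts per Ctrl library and 16 to 25 per BMP7 library, and the gene passed the expression filter only through the BMP7 libraries, an entry that favors genes higher with BMP7. Its log2 fold change was 1.73 (SE 0.45, 95% confidence interval 0.77 to 2.68, edgeR adjusted p = 0.0172). The call was lost without Ctrl replicate 1 (edgeR adjusted p = 0.0705), Ctrl replicate 2 (0.0958) or BMP7 replicate 3 (0.0796), and *Wif1* leaves the test where at least 10 counts are required in every library. In BMP7 replicate 1 alone the log2 fold change was 1.83.

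*Dkk3*, the only Dkk gene tested, had 29, 29 and 23 counts in Ctrl and 16, 18 and 15 counts with BMP7, with a log2 fold change of -0.55 and an interval of -1.24 to 0.15. *Dkk1* and *Dkk4* had no count, and *Dkk2* and *Sfrp4* had at most 1 and 3 counts in any library. *Sfrp2* and *Sfrp5* had at most 6 counts. The summed level of the 9 antagonist genes, most of it *Sfrp1*, was 197 to 212 CPM in Ctrl and 127 to 134 CPM with BMP7.

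Of the R-spondin genes, their receptors and the ligases, 5 of 8 were tested and 1 rose. *Lgr4*, a receptor for R-spondins, on chromosome 2 (109747992 to 109844602, plus strand), was at 220, 212 and 203 CPM in Ctrl and 283, 282 and 294 CPM with BMP7. It rose from 212 ± 8.20 to 286 ± 6.87 CPM, with a log2 fold change of 0.43 (SE 0.06, edgeR adjusted p = 6.51e-05), and by 0.42 in BMP7 replicate 1 alone. *Lgr5*, the related receptor known as a stem cell marker, was at 0.433, 0.787 and 0.929 CPM in Ctrl and 0.767, 1.42 and 0.661 CPM with BMP7. The groups overlapped and the interval of its log2 fold change was -0.44 to 1.33. *Rspo3*, the only R-spondin gene tested, was at 0.530, 0.295 and 0.734 CPM in Ctrl and 0.906, 0.978 and 0.826 CPM with BMP7. It did not pass (log2 fold change 0.79, edgeR adjusted p = 0.239), and like *Wif1* and *Lgr5* it entered the test only through the BMP7 libraries. *Rspo2* had no count, and *Rspo1* and *Rspo4* had at most 4 and 5 counts in any library.

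The ligases that remove Frizzled from the cell surface had lower values with BMP7, without passing the threshold. *Znrf3* was at 27.6, 29.1 and 29.1 CPM in Ctrl and 24.5, 23.7 and 25.2 CPM with BMP7, a log2 fold change of -0.23 (interval -0.39 to -0.06, edgeR adjusted p = 0.069). *Rnf43* was at 1.30, 1.38 and 1.86 CPM in Ctrl and 0.697, 1.02 and 0.661 CPM with BMP7, a log2 fold change of -0.90 (interval -1.61 to -0.18, edgeR adjusted p = 0.0935). For both, every BMP7 library lay under every Ctrl library.

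Of the 4 genes classed here as nuclear factors and feedback targets of the canonical branch, all but *Tcf7* were near the floor in both groups. *Axin2*, the feedback inhibitor most often used to read out beta-catenin activity, had 4, 17 and 10 counts in Ctrl and 2, 9 and 10 with BMP7, below the filter. *Lef1*, a beta-catenin partner, had at most 2 counts in any library, and *Nkd1*, an inhibitor of Dishevelled, at most 1. Their relatives *Tcf7l1* and *Nkd2*, which the rule does not name, were expressed and did not pass. *Nkd2* was at 426 CPM in Ctrl and 466 with BMP7, and *Tcf7l1* at 80.6 and 96.9 CPM. *Tcf7*, the remaining nuclear partner on the list, on chromosome 11 (52143198 to 52174158, minus strand), was at 14.6, 19.2 and 16.2 CPM in Ctrl and 25.7, 29.6 and 21.9 CPM with BMP7. Its groups did not overlap, and it rose from 16.7 ± 2.35 to 25.7 ± 3.87 CPM, with a log2 fold change of 0.63 (SE 0.12, edgeR adjusted p = 0.00185). In BMP7 replicate 1 alone it was 0.63 as well. For each of the 10 genes that passed, an exact permutation test of the 3 BMP7 against the 3 Ctrl libraries gave a two-sided p of 0.1, the smallest that this design allows.

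**Figure D3:**
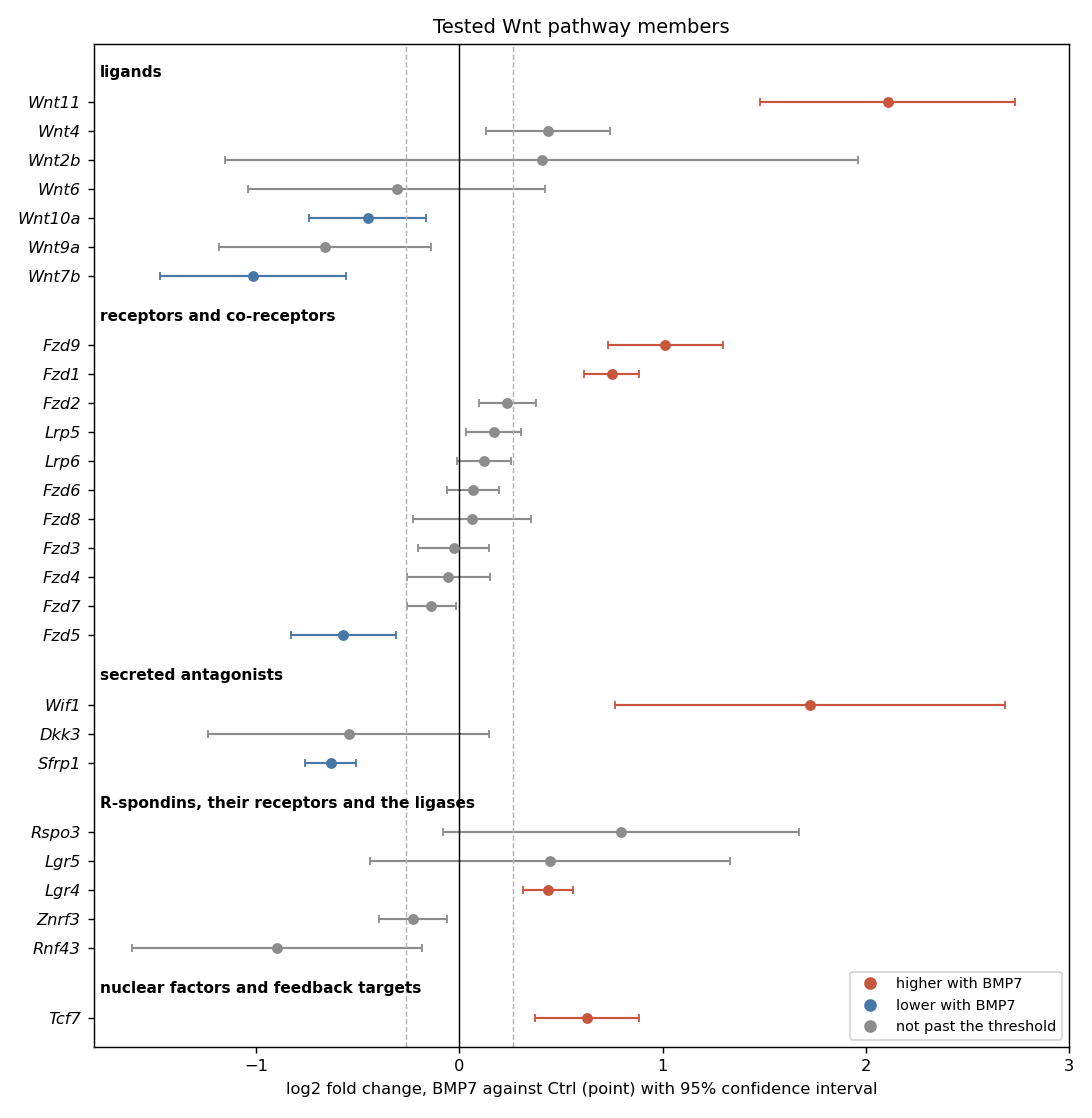
Log2 fold change of BMP7 against Ctrl with its 95% confidence interval for the 27 tested Wnt pathway genes, grouped by role. Red and blue points passed the threshold as higher and lower, grey points did not, dashed lines mark a fold of 1.2, and the estimates range from -1.02 (*Wnt7b*) to 2.11 (*Wnt11*).

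**Figure D4:**
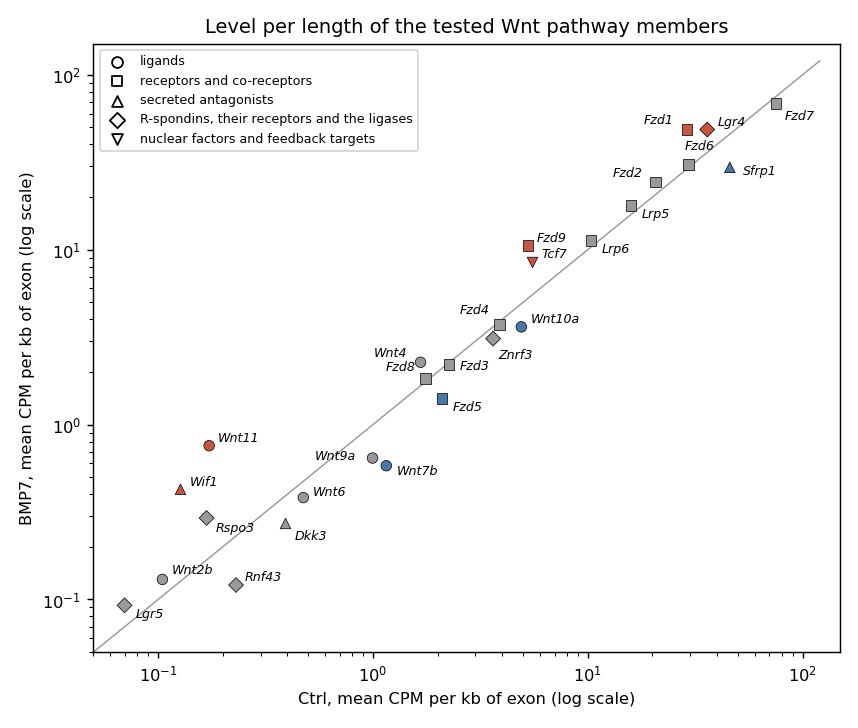
Mean level per kilobase of exon (CPM per kb, both axes logarithmic) of the 27 tested genes in Ctrl and with BMP7, with marker shape for the role and red, blue and grey for higher, lower and not past the threshold. The line marks equal levels, and *Fzd7* is highest (75.1 and 68.3 CPM per kb) and *Lgr5* lowest (0.0698 and 0.0926).

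Other genes of the pathway were read from a list of 86, which was written with earlier results of these data known. Its shares are therefore a description and no independent comparison with all genes. Of the 86 genes, 66 were tested, 10 were higher and 5 lower (22.7% of those tested, against 11.4% of all genes tested). For 27 of the 66 (40.9%) the groups did not overlap, against 29.8% of all genes tested, and the median log2 fold change was 0.02. The largest change was that of *Sostdc1*, which encodes a secreted protein that binds both BMPs and the Wnt co-receptors. It was at 34.6, 33.6 and 42.4 CPM in Ctrl and 192, 228 and 170 CPM with BMP7, a log2 fold change of 2.42 (SE 0.10, edgeR adjusted p = 1.06e-10). *Notum*, an extracellular enzyme that removes the lipid from Wnts, was at 4.29, 4.18 and 3.62 CPM in Ctrl and 15.6, 13.0 and 11.8 CPM with BMP7, a log2 fold change of 1.73 (SE 0.15, edgeR adjusted p = 3.77e-07). *Lgr6*, the third R-spondin receptor, was at 9.25, 7.82 and 10.6 CPM in Ctrl and 26.9, 28.2 and 28.2 CPM with BMP7, a log2 fold change of 1.59 (SE 0.11, edgeR adjusted p = 2.97e-08). For none of these 3 genes did the groups overlap. *Wls*, which carries Wnts to the cell surface, rose from 178 ± 9.52 to 235 ± 3.66 CPM (log2 fold change 0.40, edgeR adjusted p = 0.000187). *Porcn*, the enzyme that attaches the lipid, gave 0.10 and did not pass.

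Inside the cell, *Ctnnb1*, which encodes beta-catenin itself, had a log2 fold change of -0.04 (edgeR adjusted p = 0.748). Of 14 tested genes of the destruction complex and its regulators, which holds beta-catenin low, *Gsk3a* rose (0.43, edgeR adjusted p = 0.000319) and *Amer1* fell (-0.33, edgeR adjusted p = 0.0367), with overlapping groups for *Amer1*. Of 11 tested beta-catenin partners, *Ctnnbip1*, an inhibitor that blocks binding of Tcf factors, rose (0.38), as did *Tcf7l2*, a Tcf factor (0.31). None of the 7 tested genes of Dishevelled and its regulators passed both criteria, and *Dvl1* passed by adjusted p alone (-0.24, edgeR adjusted p = 0.0131). Of 10 tested planar polarity genes 3 fell, against 5.38% of all genes tested, and none rose. *Celsr2* and *Celsr1*, which encode atypical cadherins, fell by 0.59 and 0.71 on the log2 scale, and *Intu*, a planar polarity effector, by 0.39, a call that held in 1 of 6 fits with 1 library left out. Of 9 tested genes that were listed as beta-catenin targets in other tissues, 4 passed (44.4%, against 11.4% of all genes tested). *Tbx3* (0.69), *Bambi* (0.57) and *Sox9* (0.34) rose. *Ccnd1* fell (-0.39, with overlapping groups and a DESeq2 adjusted p of 0.22), and *Sp5*, *Cdx1* and *Mmp7* had no count. Genes placed in other classes, such as *Notum*, were not counted here. *Tbx3* and *Bambi* are also known to respond to BMPs.

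Parts of 5 of these genes lie under other genes, and without strand the reads there cannot be told apart. *Notum* shares 38.1% of its exon length with *Notumos* and *Myadml2os*, which had at most 14 and 8 counts in any library. Both had more counts with BMP7. *Notumos* had 5, 5 and 5 in Ctrl and 12, 7 and 14 with BMP7, and *Myadml2os* had 0, 0 and 2 and then 7, 8 and 4. *Gsk3a* shares 28.3% with 9130221H12Rik (58 to 106 counts), *Ctnnbip1* 25.8% with Gm13066 (at most 2 counts) and *Ccnd1* 23.4% with LTO1 (501 to 712 counts), and *Tbx3* shares 6.76% of its exon length with antisense genes. Of the 15 genes, 10 passed in each of the 6 fits that left out 1 library. *Amer1* passed in 2 of these fits, *Tcf7l2* in 3, and *Intu*, *Ccnd1* and *Bambi* in 1 each. *Amer1* had an adjusted p from edgeR of 0.137, 0.12, 0.102 and 0.192 without Ctrl replicates 1 and 2 and BMP7 replicates 1 and 3, and *Tcf7l2* one of 0.0592, 0.0775 and 0.0796 without Ctrl replicates 1 and 2 and BMP7 replicate 3. *Intu* had 0.102, 0.075, 0.0642, 0.0785 and 0.0751 without Ctrl replicates 1, 2 and 3 and BMP7 replicates 1 and 3. *Ccnd1* had 0.226, 0.0577, 0.0641, 0.0826 and 0.0934 without Ctrl replicates 2 and 3 and BMP7 replicates 1, 3 and 4, and its log2 fold change was -0.20 without Ctrl replicate 2. *Bambi* had 0.0665, 0.173, 0.0848, 0.106 and 0.0504 without Ctrl replicates 1 and 2 and BMP7 replicates 1, 3 and 4. In BMP7 replicate 1 alone the log2 fold changes of *Tcf7l2*, *Intu*, *Ccnd1* and *Bambi* were 0.20, -0.54, -0.34 and 0.66, and those of the other 11 genes had the direction of the full comparison.

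**Figure D5:**
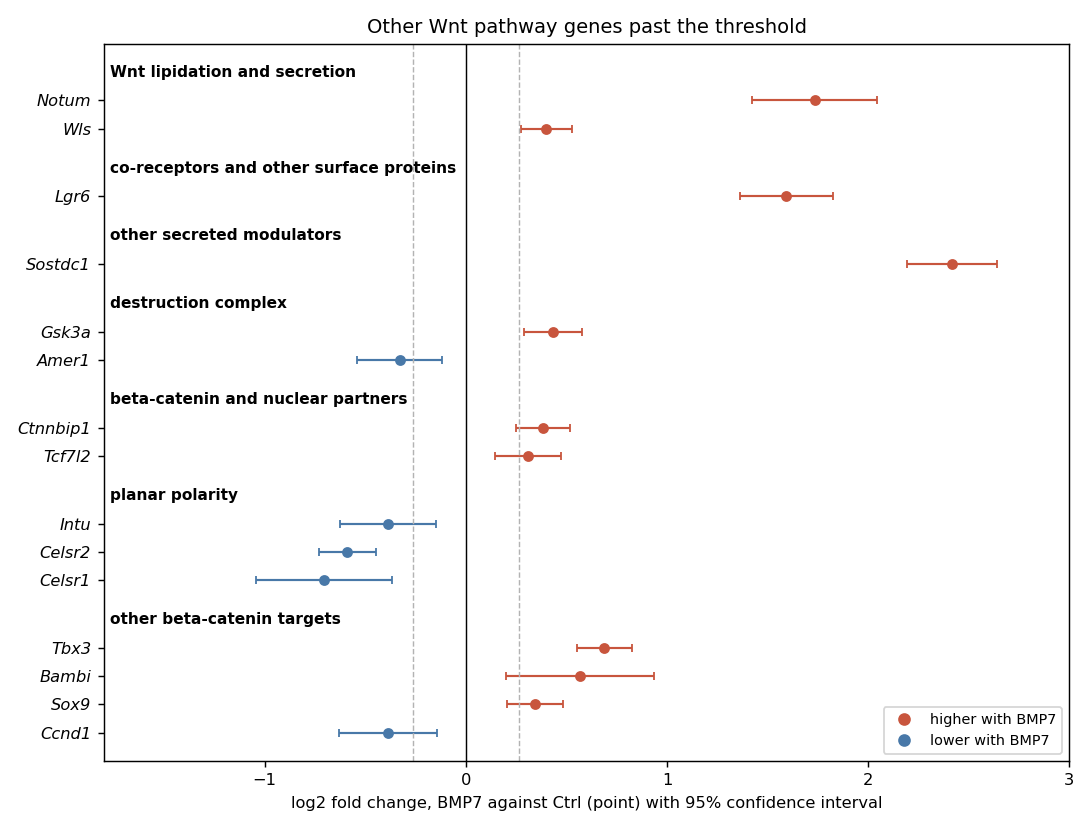
Log2 fold change of BMP7 against Ctrl with its 95% confidence interval for the 15 other Wnt pathway genes past the threshold, grouped by role, with red for higher, blue for lower and dashed lines at a fold of 1.2. The changes run from -0.71 (*Celsr1*) to 2.42 (*Sostdc1*), and the 3 planar polarity genes all lie below 0.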

How the data were processed

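HC11 poly(A) RNA of 3 Ctrl and 3 BMP7 libraries was sequenced as read pairs. The authors aligned the reads with subjunc (Subread 2.0.3) and deposited unnormalized fragment counts per gene name from featureCounts 2.0.1. The file header names an mm39 annotation and no option for strand, multi-mapping or overlapping genes, and the methods name mm10. Each gene's exon length was also deposited. Samples were grouped by title. Counts were tested in R 4.3.3 with edgeR 4.0.16 (expression filter, TMM, quasi-likelihood test of BMP7 against Ctrl, Benjamini-Hochberg adjustment over 15733 genes), with 4 residual degrees of freedom. The standard error is the log2 fold change over the square root of F, and 95% confidence intervals use it. CPM carry no prior count, and the exact permutation test used log2 CPM with a prior count of 2. Libraries of a group differed by more than sampling noise (chi-square per degree of freedom 5.37 to 13.1). All members are named, with full values for those past the threshold, and of the other pathway lists the genes past it. The rule for the members reads gene names alone, but it was set, as were the lists and tests, with earlier results of these data known. Alternatives were other scalings, DESeq2 1.42.0, other filters and fold thresholds, leaving out libraries and BMP7 replicate 1 alone. The scripts were tested on simulated data. Exon overlaps came from the deposited positions. Transcripts of the 27 tested members were searched with BLAST against GENCODE vM21 at 95% identity over at least 100 bases, and 6 matched another gene, over at most 17.8% of their length. Promoters came from RefSeq (GRCm38.p6), and no coordinates were carried between builds. Genes with few counts are limited by counting error.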

Additional observations from a re-analysis of the deposited data

How the results depend on the processing

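No paired analysis was possible because the numbers of the BMP7 columns (1, 3 and 4) are not those of the labels, so replicates cannot be matched across the groups. With 1 library left out, the number of the genes chosen by name that were higher ranged from 5 to 7 and lower from 3 to 5 (6 and 4 with all libraries), and 8 of the 10 passed in each of the 6 fits, all but *Wnt10a* and *Wif1*. Secreted antagonists past the threshold ranged from 1 to 2, lower genes of the other pathway lists from 2 to 5, and all lower genes from 563 to 902 (563 without Ctrl replicate 2). With at least 10 counts in every library 1 antagonist passed. With BMP7 replicate 1 alone, where only the Ctrl libraries give the spread, the counts were 2 lower members and 1 antagonist, which says little about stability. At a fold threshold of 1.5, 2 members were lower, none of the R-spondin class passed (0), 4 other pathway genes were higher and 2 lower, and 476 of all genes were higher and 304 lower. DESeq2 kept all 10 members and 14 of the 15 other pathway genes, all but *Ccnd1*. Over 14 alternatives and 42 single genes, which gave 584 values, no call reversed its direction. Calls were lost in 49 values, and 7 values newly passed. Only the 10 members and 15 other pathway genes that passed had a call to lose. The 584 values also hold those of the 17 members that had not passed, so 49 of 584 is not a rate of loss. The causes were not tested, apart from fewer libraries or genes by construction. Other scalings moved the median of all genes by at most 0.02 on the log2 scale. At this depth 25 of the 52 genes were too low to test.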
